A study of Mus musculus with 19 samples.

Results

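A set of 10 mouse genes that mark dendritic cells or their maturation was followed through 19 oral tumour libraries: Itgax, Flt3, Zbtb46, Irf8, Batf3, Xcr1, Clec9a, Cd83, Ccr7 and Fscn1. They were chosen by name, and each was found by its Ensembl identifier among the 55487 rows of a table of read counts, so the set is 10 of 55487 rows. Of the 10, 8 had enough counts to be among the 16909 genes tested; Xcr1 and Clec9a were below that filter and are given by their counts.

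The libraries came from C57BL/6J mice that were 6 weeks old when they began to drink water with 4-nitroquinoline 1-oxide (4NQO), a carcinogen that gives squamous tumours of the mouth and tongue, at 100 µg/ml for 10 weeks, followed by plain water. All 5 groups share this strain and this carcinogen. They were vehicle (4 libraries), regorafenib at 5 mg/kg/day (4), an antibody to the checkpoint receptor PD-1, labelled anti-PD1 (3), anti-PD1 with regorafenib, called the combination here (5), and an agonist antibody to CD40, labelled anti-CD40 agonist (3). Regorafenib blocks many kinases, including receptors through which blood vessels grow. The labels give no dose for either antibody, no separate regorafenib dose for the combination and no age at sampling, and they do not say that each library is a different animal, so the p-values measure the spread between these libraries, which may be technical.

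Dendritic cells take up antigen, move to lymph nodes and show it to T cells. They arise from precursors that depend on the receptor FLT3, and the conventional ones carry the transcription factor ZBTB46 and the integrin chain CD11c, which Itgax encodes. Type 1 conventional dendritic cells depend on IRF8 and BATF3, carry the receptors XCR1 and CLEC9A, and present antigen of dead cells to CD8 T cells. On maturation, dendritic cells raise CD83, the chemokine receptor CCR7 that guides them to lymph nodes, and the actin-bundling protein fascin, which Fscn1 encodes. CD40, bound by CD40 ligand of T cells, is one of the signals for this maturation. Several of the genes are not restricted to dendritic cells. Macrophages make CD11c and IRF8, naive T cells make CCR7, endothelium makes ZBTB46, and carcinoma cells can make fascin.

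The 10 genes lie on 9 chromosomes of the GRCm38 assembly and are protein coding in GENCODE M21. Irf8 (ENSMUSG00000041515.10) spans bases 120736358 to 120756694 of chromosome 8 on the plus strand, and Itgax (ENSMUSG00000030789.9) spans 128129547 to 128150657 of chromosome 7, also on the plus strand. Fscn1 (ENSMUSG00000029581.14) spans 142960343 to 142973185 of chromosome 5 on the plus strand, and Zbtb46 (ENSMUSG00000027583.13) spans 181387762 to 181459426 of chromosome 2 on the minus strand. Clec9a (ENSMUSG00000046080.17, chromosome 6, 129408862 to 129424763) shares 184 exon bases with Clec1b on the same strand, so reads there may be split between them or lost. No other member shares exon bases with another gene. RefSeq promoter windows of 300 bases matched 8 of the 10 symbols. The 250 bases before the start site are shown for Itgax, whose anti-PD1 and vehicle libraries did not overlap, 5′ to 3′ on the plus strand of GRCm38.p6 (chr7:128129300-128129549), with a motif match in capitals.
Itgax: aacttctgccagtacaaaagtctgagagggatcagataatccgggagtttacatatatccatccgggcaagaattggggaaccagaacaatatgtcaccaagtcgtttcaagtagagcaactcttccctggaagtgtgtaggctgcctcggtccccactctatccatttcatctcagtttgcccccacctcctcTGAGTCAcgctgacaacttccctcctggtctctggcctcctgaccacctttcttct
The capitals in Itgax are 1 match to TGANTCA, the palindromic AP-1 motif, 56 bases before the start site. The RefSeq window of Zbtb46 (chr2:181424389-181424638 before the start, minus strand), which lies inside the GENCODE gene and not at its outer end, also held TGANTCA, 61 bases before that start. Clec9a held GAAANNGAA, an interferon response core, 2 bases before its start on the minus strand. Neither GGAANNGAA, an ETS-IRF type motif, nor GGANNTTCC, an NF-kappa-B type motif, was found in any member's window, and the windows of Irf8, Batf3, Flt3, Xcr1 and Fscn1 held no match to the motifs given here. Both strands were searched. Among 32851 RefSeq windows of the same length, TGANTCA was in 7.81%, GAAANNGAA in 8.56%, GGAANNGAA in 8.24% and GGANNTTCC in 4.26%. A match is a description of the sequence and does not show binding.

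Library totals ran from 16776177 to 24969492 counts, and every pair of libraries within a group differed by more than counting error. Levels are given as CPM, the count divided by the library total scaled by edgeR's TMM factor, and 3 counts correspond to 0.119 to 0.177 CPM. Markers of keratinocytes, the cells of squamous carcinoma, were detected in every library (10 of 10, summed 16459 to 34870 CPM), and the summed level of 12 pan-leukocyte genes was 75.3 to 147 CPM. Per kilobase of exon, which allows genes to be compared, Fscn1 was the highest member at a mean of 4.98 CPM per kilobase over all libraries, followed by Itgax at 1.36, Cd83 at 0.903, Irf8 at 0.637 and Zbtb46 at 0.594. Ccr7 at 0.331, Batf3 at 0.272 and Flt3 at 0.250 were lower, and the type 1 receptors Xcr1 at 0.0607 and Clec9a at 0.0446 were the lowest. In whole tumour pieces, fewer cells of a type and less RNA per cell cannot be told apart.

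**Figure D1:**
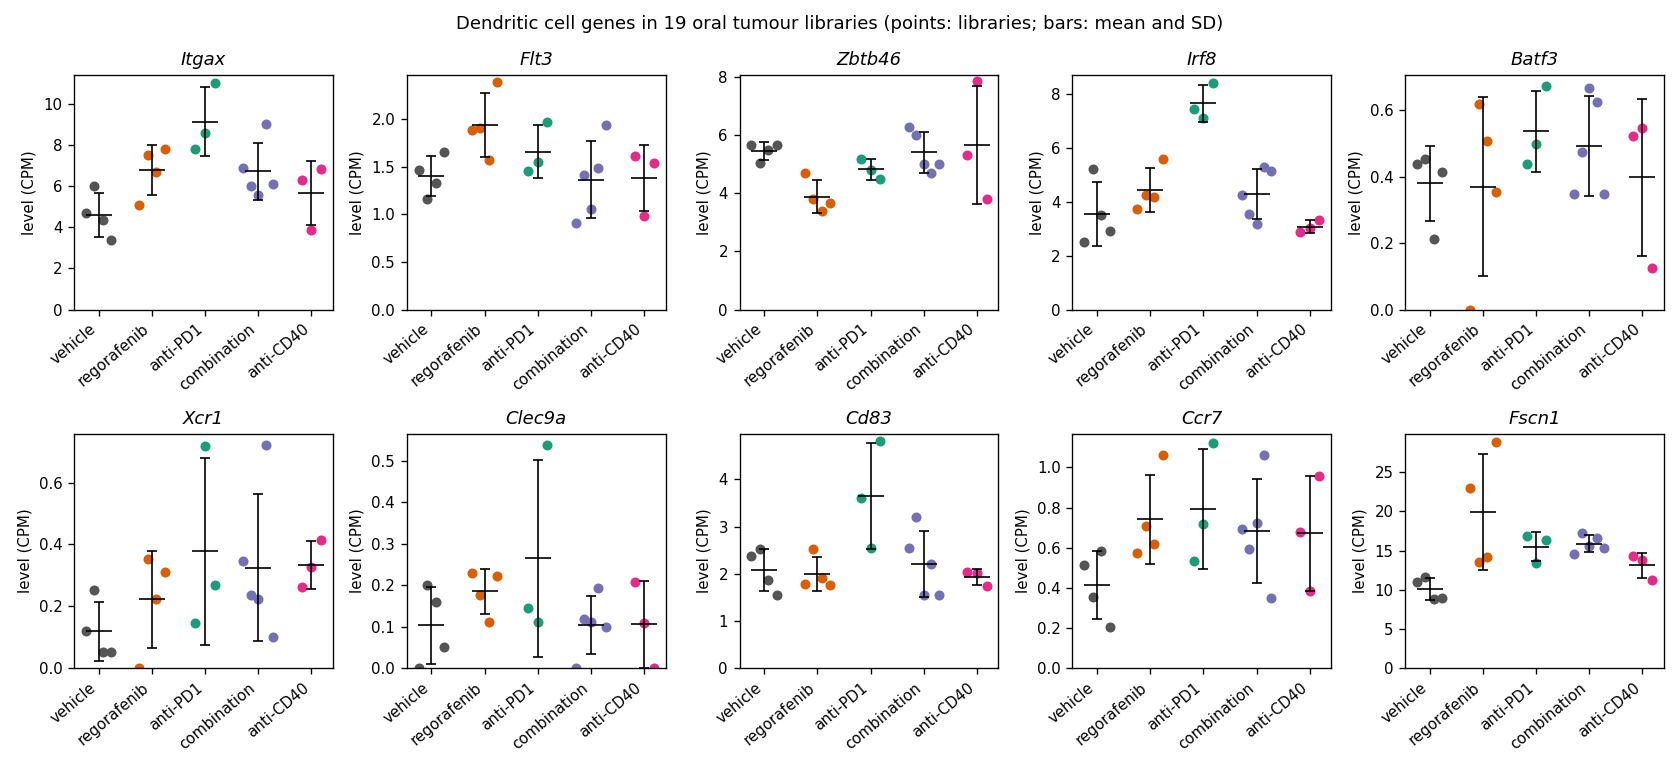
Level of each of the 10 genes in CPM (vertical axes, from 0) in every library, by treatment group; points are libraries and bars are the mean and SD. Irf8 in the 3 anti-PD1 libraries (7.08 to 8.39 CPM) lies above every other library, and Fscn1 is highest in 2 of the 4 regorafenib libraries (22.9 and 28.9 CPM).

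Irf8 and Fscn1 differed among the 5 groups and the other 6 tested genes did not pass. In one edgeR quasi-likelihood fit with Benjamini-Hochberg adjustment over all 16909 genes, the adjusted p was 0.0200 for Irf8 and 0.0403 for Fscn1. Itgax, at an adjusted p of 0.0607, and Cd83, at 0.0902, were nearest to the threshold of 0.05 among the rest. These 2 of 8 compare with 4.49% of all genes tested that passed the same test. The Irf8 call was kept in 28 of 30 alternative analyses, including all 19 that left out 1 library, and was lost with the level of pan-leukocyte genes (adjusted p = 0.174) or of keratinocyte genes (adjusted p = 0.0773) as a covariate. The Fscn1 call was kept in 13 of 30, including 8 of the 19 that left out 1 library, where its adjusted p ranged from 0.0291 to 0.101.

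Irf8, the transcription factor on which type 1 dendritic cells and many monocytes depend, was highest under anti-PD1 alone. The vehicle libraries 1 to 4 had 2.50, 5.19, 3.52 and 2.91 CPM, and the anti-PD1 libraries 1 to 3 had 7.44, 7.08 and 8.39 CPM. The groups did not overlap, and every anti-PD1 library was also above every library of the other 4 groups. Regorafenib libraries 1 to 4 had 3.73, 4.25, 4.17 and 5.58 CPM, combination libraries 1 to 5 had 4.24, 3.55, 3.18, 5.29 and 5.13 CPM, and anti-CD40 libraries 1 to 3 had 2.87, 3.00 and 3.33 CPM. In the order of group means (anti-PD1 7.64 CPM, regorafenib 4.43, combination 4.28, vehicle 3.53, anti-CD40 3.07), the ranges of neighbours overlapped below the first place and anti-PD1 was separate. Against vehicle the log2 change under anti-PD1 was 1.12 ± 0.21 (SE). With the edgeR test this was 5th of 16909 genes by p, with an adjusted p of 0.126, so it did not pass. Against anti-PD1, Irf8 was lower by 1.31 ± 0.23 on the log2 scale with anti-CD40 (adjusted p = 0.0920 in edgeR) and lower by 0.83 ± 0.20 with the combination (adjusted p = 0.128), in both cases with groups that did not overlap. Other analyses did call it against vehicle, namely DESeq2, limma with sample weights, edgeR without the filter on low counts, and edgeR without vehicle 2, the vehicle library with the highest Irf8 (adjusted p = 0.0145). Over all alternatives of this contrast the adjusted p ranged from 0.00162 to 0.708.

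Itgax, the CD11c integrin chain of dendritic cells and many macrophages, had the same first place. Vehicle libraries had 4.69, 6.00, 4.37 and 3.37 CPM, and anti-PD1 libraries had 7.83, 8.58 and 11.0 CPM. These groups did not overlap, while regorafenib (5.10, 7.53, 6.70 and 7.80 CPM), the combination (6.89, 6.03, 5.57, 9.05 and 6.13 CPM) and anti-CD40 (6.32, 3.88 and 6.82 CPM) each overlapped vehicle. The log2 change from vehicle was 0.99 ± 0.22 under anti-PD1 (adjusted p = 0.160 in edgeR, 23rd by p), 0.56 ± 0.20 under regorafenib (adjusted p = 0.102) and 0.55 ± 0.20 under the combination (adjusted p = 0.325). None passed; DESeq2 alone of the alternatives called the anti-PD1 contrast.

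Flt3, the receptor for the growth factor of dendritic cell precursors, passed in no contrast. Its range was 1.16 to 1.66 CPM in vehicle, 1.58 to 2.39 in regorafenib, 1.46 to 1.98 in anti-PD1, 0.909 to 1.94 in the combination and 0.983 to 1.62 in anti-CD40. All neighbours in the order of means overlapped, and the largest change from vehicle was 0.47 ± 0.23 (log2) under regorafenib (adjusted p = 0.206 in edgeR).

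Zbtb46, the transcription factor of conventional dendritic cells that endothelium also makes, had its lowest levels under regorafenib alone. Vehicle libraries 1 to 4 had 5.68, 5.04, 5.49 and 5.65 CPM and regorafenib libraries 1 to 4 had 4.70, 3.81, 3.38 and 3.68 CPM. Every regorafenib library was below every vehicle library, and combination libraries, at 6.28, 6.03, 5.01, 4.72 and 5.03 CPM, were all above the regorafenib libraries. Anti-PD1 libraries had 5.20, 4.82 and 4.49 CPM, and the anti-CD40 libraries were spread from 3.82 to 7.86 CPM. The log2 change was -0.49 ± 0.17 for regorafenib against vehicle (adjusted p = 0.0873 in edgeR) and 0.48 ± 0.16 for the combination against regorafenib (adjusted p = 0.0653). Neither passed in that fit. Limma with sample weights called both, and so did edgeR fitted to the compared groups alone (adjusted p = 0.0461 for regorafenib against vehicle).

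The genes of type 1 dendritic cells other than Irf8 were near the detection limit. Batf3, the partner factor that these cells need, had 0 to 15 counts per library and 0 to 0.673 CPM, and its groups overlapped throughout. Its change from vehicle was 0.49 ± 0.55 (log2) under anti-PD1 (adjusted p = 0.819 in edgeR). Xcr1, the receptor for the chemokine XCL1, had 105 counts over all 19 libraries. Vehicle libraries held 3, 5, 1 and 1 counts, regorafenib 0, 8, 4 and 7, anti-PD1 3, 13 and 6, the combination 8, 4, 4, 15 and 2, and anti-CD40 5, 6 and 10. Summed within groups, Xcr1 was 0.120 CPM in vehicle (95% Poisson interval 0.0577 to 0.221), 0.361 CPM under anti-PD1 (0.226 to 0.547), 0.334 CPM in the combination (0.230 to 0.469) and 0.341 CPM under anti-CD40 (0.211 to 0.522). The vehicle interval lies below those of anti-PD1 and the combination and overlaps that of anti-CD40, and the intervals cover counting error only. In an edgeR fit without the filter on low counts, the log2 change of Xcr1 from vehicle was 1.57 ± 0.70 under anti-PD1 (unadjusted p = 0.0328, adjusted p = 0.789) and 1.42 ± 0.64 in the combination (unadjusted p = 0.0359, adjusted p = 0.703). The adjusted p was 0.894 for anti-CD40 against vehicle, the contrast in which its groups did not overlap. Clec9a, the receptor that binds actin of dead cells, had 56 counts in all and at most 12 in a library, anti-PD1 3. Its summed level was 0.0963 CPM in vehicle (0.0416 to 0.190) and 0.279 CPM under anti-PD1 (0.163 to 0.447), with an adjusted p of 0.820 in the unfiltered edgeR fit. Neither receptor passed in any contrast of that fit.

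Of the maturation genes, Cd83, a surface protein of mature dendritic cells that activated lymphocytes also carry, was highest under anti-PD1. Vehicle libraries had 2.38, 2.52, 1.86 and 1.56 CPM and anti-PD1 libraries had 3.60, 2.55 and 4.80 CPM. The groups did not overlap, but the gap between vehicle 2 and anti-PD1 2 was small. The log2 change was 0.81 ± 0.25 (adjusted p = 0.266 in edgeR). The other groups lay within or around the vehicle range, with means of 2.00 CPM in regorafenib, 2.21 in the combination and 1.93 in anti-CD40. Ccr7, the homing receptor, was low and its groups overlapped, at 0.208 to 0.586 CPM in vehicle, 0.573 to 1.06 in regorafenib, 0.535 to 1.12 in anti-PD1, 0.349 to 1.06 in the combination and 0.382 to 0.956 in anti-CD40. Its change from vehicle was 0.83 ± 0.38 (log2) under regorafenib (adjusted p = 0.189 in edgeR) and 0.92 ± 0.41 under anti-PD1 (adjusted p = 0.487). Genes of T cells, which also carry this receptor, moved with it under regorafenib. Of 10, 4 passed upward in edgeR, where 6.32% of all tested genes passed, and all 10 had a positive change (median 0.89). Their summed level was 23.2 to 31.8 CPM beside 19.5 to 22.4 in vehicle. The part of T cells in the Ccr7 values was not tested beyond the relation across libraries given below.

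Fscn1, which encodes fascin, rose under regorafenib. Vehicle libraries 1 to 4 had 11.0, 11.6, 8.79 and 8.92 CPM, and regorafenib libraries 1 to 4 had 22.9, 13.6, 14.2 and 28.9 CPM. All regorafenib libraries were above all vehicle libraries, and regorafenib 1 and 4 were well above regorafenib 2 and 3. The means were 10.1 ± 1.42 CPM (SD, n = 4) in vehicle and 19.9 ± 7.36 CPM (SD, n = 4) in regorafenib, a log2 change of 0.98 ± 0.19 (adjusted p = 0.00926 in edgeR). It was called in all 8 analyses that left out 1 vehicle or regorafenib library, with an adjusted p of 0.00513 to 0.0403. It was not called with the 8 libraries fitted alone (adjusted p = 0.0555) or with the level of skeletal muscle (0.0553), pan-leukocyte (0.0629) or keratinocyte genes (0.753) as a covariate. Combination libraries, at 14.6, 17.3, 15.5, 16.7 and 15.3 CPM, and anti-PD1 libraries, at 16.8, 13.4 and 16.3 CPM, were also all above vehicle. Those changes were 0.65 ± 0.18 (log2, adjusted p = 0.200 in edgeR) and 0.62 ± 0.20 (adjusted p = 0.312), and neither passed. Anti-CD40 libraries had 14.3, 13.8 and 11.3 CPM.

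Set side by side against vehicle, the 4 treatments share the same 4 vehicle libraries. Under regorafenib 1 of the 8 tested genes passed (Fscn1), where 6.32% of all tested genes passed. An unadjusted p under 0.05 was found for 4 of 8, and for 24.5% of all genes. The groups did not overlap for 2 of 8 (Fscn1 and Zbtb46), as they did not for 16.5% of all tested genes. With anti-PD1 none of the 8 passed in edgeR, where 0% of all tested genes did; 5 of 8 had an unadjusted p under 0.05, all higher, as did 9.32% of all genes in either direction. DESeq2 called 2 (Itgax and Irf8) and limma 1 (Irf8). The groups did not overlap for 4 of 8 (Itgax, Irf8, Cd83 and Fscn1), against 9.23% of all tested genes. For the combination none of 8 passed in edgeR, 0.0237% of all genes did, 2 of 8 had an unadjusted p under 0.05 (10.8% of all genes), and neither DESeq2 nor limma called any. For anti-CD40 none of 8 passed in edgeR, 0% of all genes did, none of 8 had an unadjusted p under 0.05 (6.06% of all genes), and DESeq2 and limma called 0. The median log2 change over the 8 was 0.40 under regorafenib, 0.72 under anti-PD1, 0.32 in the combination and 0.03 under anti-CD40, where the medians of all tested genes were 0.00, -0.00, 0.01 and 0.01.

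**Figure D2:**
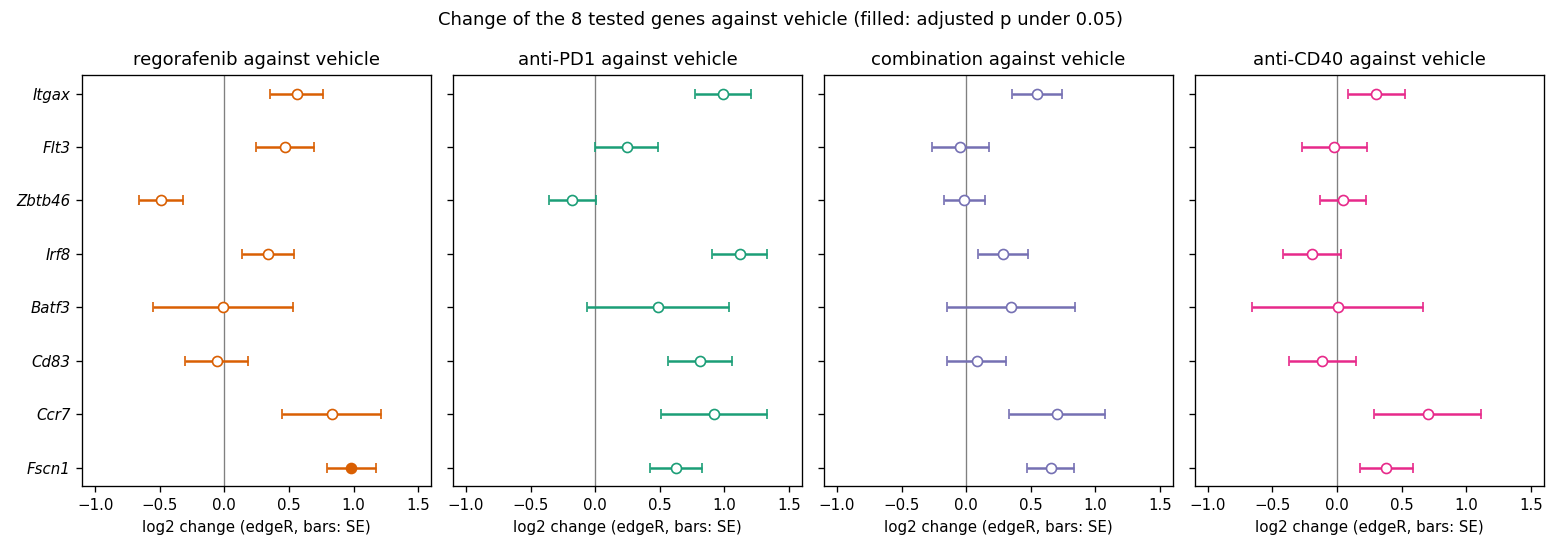
Log2 change against vehicle (horizontal axis) of the 8 tested genes, with SE bars, in a panel for each treatment; filled points have an adjusted p under 0.05 in edgeR. Fscn1 under regorafenib (0.98) is the filled point, and the anti-CD40 changes of Irf8, Cd83, Flt3, Zbtb46 and Batf3 lie within 0.20 of 0.

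Anti-PD1 was given with and without regorafenib, which allows the test of whether its effect differed between these settings. Irf8 went from 3.53 ± 1.18 CPM (SD, n = 4) in vehicle to 7.64 ± 0.68 (SD, n = 3) with anti-PD1, and from 4.43 ± 0.80 (SD, n = 4) with regorafenib to 4.28 ± 0.94 (SD, n = 5) when anti-PD1 was added. The difference between these 2 changes was -1.17 ± 0.29 on the log2 scale (adjusted p = 0.0651 in edgeR). For Itgax it was -1.002 ± 0.29 (adjusted p = 0.102) and for Fscn1 -0.95 ± 0.27 (adjusted p = 0.0986). None of the 8 passed this test in edgeR, where 0.627% of all genes did. At an unadjusted p under 0.05 there were 5 of 8, beside 15.8% of all genes, of which 4 were negative and 1, Zbtb46 at 0.65 ± 0.24, was positive. DESeq2 called 3 (Itgax, Irf8 and Fscn1) and limma 1 (Irf8). Without vehicle 2, edgeR also called Irf8. Averaged over both settings, the change with anti-PD1 was 0.53 ± 0.14 for Irf8 (adjusted p = 0.0662) and 0.49 ± 0.14 for Itgax (adjusted p = 0.0819). None of 8 passed, where 0.544% of all genes did, 3 of 8 had an unadjusted p under 0.05 (22.3% of all genes), and DESeq2 and limma each called 2 (Itgax and Irf8). Averaged likewise, the change of Fscn1 with regorafenib was 0.51 ± 0.14 (adjusted p = 0.0623 in edgeR), and none of 8 passed, where 1.33% of all genes did. Here 2 of 8 had an unadjusted p under 0.05, a share near the 19.1% of all genes, DESeq2 called 1 (Fscn1) and limma 0.

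**Figure D3:**
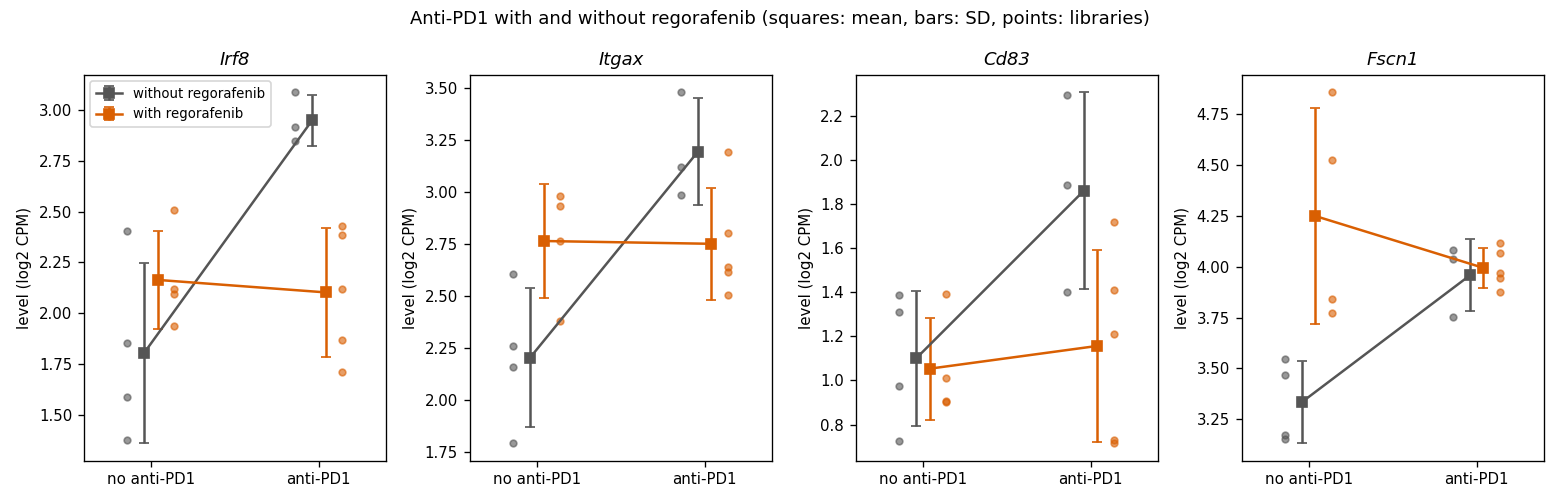
Level (log2 CPM, vertical axes that do not start at 0) of Irf8, Itgax, Cd83 and Fscn1 without and with anti-PD1, joined separately for groups without and with regorafenib; squares are means, bars are SD and points are libraries. The line without regorafenib runs upward in each panel, whereas the line with regorafenib is nearly level for Irf8 and Itgax.

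Adding anti-PD1 to regorafenib left none of the 8 past the threshold in edgeR, where 10.5% of all genes passed. Zbtb46 (0.48) and Flt3 (-0.51 ± 0.21, log2) had an unadjusted p under 0.05, 2 of 8 where 28.1% of all genes did. DESeq2 called 1 (Zbtb46) and limma called both. Adding regorafenib to anti-PD1 called none of 8 in edgeR, where 0.00591% of all genes passed. Irf8, Cd83 and Itgax were lower at an unadjusted p under 0.05, with log2 changes of -0.83, -0.73 and -0.44, where 9.94% of all genes had such a p. DESeq2 called 1 (Irf8), and limma 0. Of the antibodies given alone, anti-CD40 against anti-PD1 also called none of 8, where 0% of all genes passed. Irf8 was 4th of all genes by p, its log2 change was -1.31, and those of Cd83 and Itgax were -0.92 ± 0.27 and -0.69 ± 0.23. These 3 had groups that did not overlap, against 13.1% of all genes, and an unadjusted p under 0.05 (10.3% of all genes); DESeq2 and limma each called 1 (Irf8).

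CD40 is itself a maturation receptor of dendritic cells. Under its agonist no member and no gene of the dendritic cell lists was called against vehicle. In that contrast 0% of all tested genes were called, so the absence of calls is not particular to these genes. The mean of Cd83 was 1.93 ± 0.16 CPM (SD, n = 3) under anti-CD40 and 2.08 ± 0.45 (SD, n = 4) in vehicle. Its log2 change was -0.11 ± 0.26 (adjusted p = 0.953 in edgeR). The other maturation members had positive changes that did not pass, Ccr7 at 0.70 ± 0.41 (adjusted p = 0.846) and Fscn1 at 0.38 ± 0.20 (adjusted p = 0.837). Among 25 tested maturation and migration genes, Slco5a1 (0.27 ± 0.11, log2) and Traf1 (0.45 ± 0.21), a signalling adaptor of the TNF receptor family, had the smallest p, with adjusted p of 0.814 and 0.820 in edgeR. Cd40 stood at 0.640 ± 0.11 CPM (SD, n = 3) under anti-CD40, 0.728 ± 0.13 (SD, n = 4) in vehicle and 1.27 ± 0.49 (SD, n = 3) under anti-PD1.

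Wider lists place the members among other genes assigned to the same cells. In vehicle the summed level was 457 to 597 CPM for the type 1 list, 738 to 869 for type 2 and 974 to 1060 for plasmacytoid genes. These sums exceed that of the pan-leukocyte genes (75.3 to 109 CPM), and the share of these lists made by other cells was not tested. Of 13 shared identity and antigen presentation genes, which include Itgax, Flt3, Zbtb46 and Irf8, none passed in edgeR under anti-PD1. The median log2 change was 0.87, beside -0.00 over all genes. At an unadjusted p under 0.05, 8 of 13 were higher, beside 9.32% of all genes in either direction. Irf8 and Itgax had the smallest p of that list and are among the 8, so that count repeats part of the members' result. The median was lower for the list of type 1 cells (11 tested, 0.13, with Itgae, an integrin chain, at 0.63 ± 0.25), of type 2 cells (12 tested, 0.17, with Notch2 at -0.31 ± 0.11 and the lectin Mgl2 at 0.57 ± 0.22) and of maturation and migration (25 tested, 0.24, with Traf1 at 0.95 ± 0.21 and the costimulatory ligand Cd86 at 0.70 ± 0.21). None of these passed in edgeR. Plasmacytoid genes (10 tested) had a median of 0.40, with the interferon-inducible Bst2 at 0.68 ± 0.22, and Langerhans cell genes (5 tested) had a median of 0.34, with Runx3 at 0.91 ± 0.26. Again none passed. Growth and recruitment signals (6 of 12 tested) had the highest median, 1.08, and all 6 changes were positive. The smallest p were those of the chemokines Cxcl10 (2.90 ± 0.74, adjusted p = 0.225 in edgeR) and Cxcl9 (2.77 ± 0.72, adjusted p = 0.240), which attract T cells and NK cells. Cxcl9 was 21.4 to 44.7 CPM under anti-PD1 and 1.99 to 8.10 CPM in vehicle. Flt3l, the FLT3 ligand, was 6.47 ± 1.68 CPM (SD, n = 3) under anti-PD1 and 5.56 ± 0.72 (SD, n = 4) in vehicle.

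Under regorafenib, 2 of 25 maturation and migration genes passed, Fscn1 upward and Slco5a1, a transporter, downward, a share near the 6.32% of all genes. Slco5a1 fell by 0.47 on the log2 scale (adjusted p = 0.0154 in edgeR), from 17.2 to 20.1 CPM in vehicle to 12.4 to 14.5 CPM. It was higher by 0.70 ± 0.10 in the combination than in regorafenib alone (adjusted p = 0.00175), and the change with anti-PD1 differed between the settings by 0.79 ± 0.15 (adjusted p = 0.0248). Among 19 skeletal muscle genes, 7 also passed downward under regorafenib and 0 passed upward, and 2 had a positive change. Their part in the Slco5a1 values was not tested. Of 10 plasmacytoid genes 1 passed, Ly6d, which squamous epithelium also makes, higher by 0.33 ± 0.08 (adjusted p = 0.0263). None of 13 shared identity, 11 type 1, 12 type 2, 5 Langerhans or 6 signal genes passed, and the nearest was Cbfa2t3, a transcriptional corepressor, at -0.52 ± 0.16 (adjusted p = 0.0511). Medians were 0.35 for shared identity, 0.18 for type 1, -0.04 for type 2, 0.19 for maturation and 0.50 for Langerhans genes, beside 0.00 over all genes. When the combination was set against regorafenib, Cbfa2t3 (0.61 ± 0.15, adjusted p = 0.0178) and Zeb2 (0.60 ± 0.12, adjusted p = 0.00799), a transcription factor of type 2 and plasmacytoid cells, were higher, and Ly6d was lower by 0.38 (-0.38 ± 0.08, adjusted p = 0.00860). In that contrast 10.5% of all genes passed, and lists of other cells moved in the same libraries. Of 19 skeletal muscle genes 8 passed upward (summed 41956 to 56905 CPM in the combination, 30017 to 38498 in regorafenib). Of 11 macrophage genes 3 passed upward (119 to 160 CPM beside 100.0 to 117), and of 10 keratinocyte genes 3 passed downward (20632 to 31336 CPM beside 30416 to 34870). Their part in these changes was not tested.

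**Figure D4:**
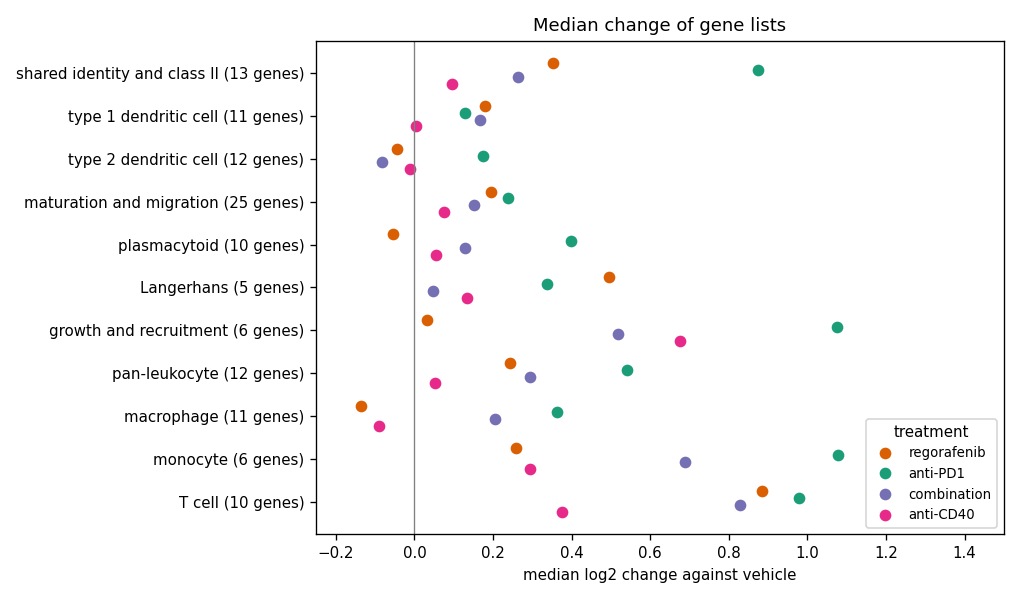
Median log2 change against vehicle (horizontal axis) of 7 dendritic cell lists and 4 lists of other white blood cells, with 1 point per treatment and the number of tested genes in brackets. Under anti-PD1 the shared identity list (0.87), the growth and recruitment list (1.08), the monocyte list (1.08) and the T cell list (0.98) are farthest to the right.

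Markers of other cells moved in the same libraries. Under anti-PD1, 10 of 12 pan-leukocyte genes were higher at an unadjusted p under 0.05 (none passed in edgeR, median 0.54), and their summed level was 129 to 147 CPM beside 75.3 to 109 CPM in vehicle. In that contrast 9.32% of all tested genes had such a p, in either direction. For monocyte genes 6 of 6 tested were higher at that p (none passed, summed 20.4 to 26.7 CPM beside 9.80 to 15.6), for macrophage genes 6 of 11 (none passed, 136 to 174 CPM beside 111 to 151) and for T cell genes 7 of 10 (none passed, 19.1 to 30.3 CPM beside 19.5 to 22.4). The part of these cells in the anti-PD1 values was not tested beyond a covariate. With the mean of the pan-leukocyte genes as that covariate, the anti-PD1 change was 0.72 ± 0.31 for Irf8, 0.21 ± 0.23 for Itgax and 0.14 ± 0.34 for Cd83, and for Ccr7 it turned to -0.35 ± 0.50. That covariate itself differs between the groups (mean log2 CPM 3.10 to 3.35 under anti-PD1, 2.27 to 2.81 in vehicle). The treatment and the leukocyte content therefore cannot be told apart here. Divided by the summed pan-leukocyte CPM of its own library, Irf8 was 5.51% to 5.70% in the 3 anti-PD1 libraries and 2.41% to 4.76% in vehicle, with no overlap, while Itgax was 5.83% to 7.50% and 4.48% to 5.50%. On that scale Cd83 was 1.98% to 3.26% under anti-PD1 and 1.94% to 2.31% in vehicle, which overlap. B cell genes were scarce, with 1 of 8 tested and a summed 0.710 to 2.49 CPM, and of the lymph node genes Glycam1 and Madcam1 were at 0 in every library.

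Under regorafenib, the setting in which Fscn1 rose, markers of several other cells moved too. Against vehicle 6.32% of all tested genes passed there, and 24.5% had an unadjusted p under 0.05. Of 10 keratinocyte genes 8 passed upward and all 10 had a positive change (median 0.64). Their summed level was 30416 to 34870 CPM in regorafenib and 16459 to 23133 CPM in vehicle, without overlap. With the mean of the keratinocyte genes as a covariate the regorafenib change of Fscn1 was 0.68 ± 0.29 and that of Zbtb46 was -0.12 ± 0.24. That covariate itself differs between the groups, so the treatment and the keratinocyte content cannot be told apart here. Of 19 skeletal muscle genes 7 passed downward under regorafenib and 2 had a positive change (median -0.40). Their summed level was 30017 to 38498 CPM beside 45253 to 52652 CPM in vehicle. With them as a covariate the change of Fscn1 was 0.90 ± 0.22 and that of Zbtb46 -0.30 ± 0.16. Salivary gland genes differed most within a group, with a summed 40.7 to 19784 CPM among the vehicle libraries, and the change of Fscn1 with that covariate was 1.01 ± 0.18. Of white cell lists other than T cells, 2 of 11 macrophage genes passed downward (summed 100.0 to 117 CPM beside 111 to 151). For monocytes 1 of 6 genes passed upward (13.8 to 18.7 CPM beside 9.80 to 15.6). A positive change was found for 2 of the 11 and for 4 of the 6. None of 5 tested neutrophil genes passed in edgeR, and 1 was higher at an unadjusted p under 0.05. The summed level of the neutrophil list was 1456 to 3074 CPM in regorafenib and 7.57 to 1425 CPM in vehicle, without overlap, and the list includes S100a8 and S100a9, which squamous epithelium also makes. The part of these cells in the Fscn1 and Zbtb46 values was not tested beyond covariates and the relations across libraries given below. None of 10 blood endothelium genes passed in edgeR under regorafenib, 2 were lower at an unadjusted p under 0.05 and all 10 had a negative change (median -0.27). Their summed level was 263 to 322 CPM in regorafenib and 278 to 397 CPM in vehicle. With the endothelium genes as a covariate the regorafenib change was -0.27 ± 0.15 for Zbtb46 (adjusted p = 0.392) and 1.06 ± 0.20 for Fscn1 (adjusted p = 0.0251 in edgeR).

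Across the 19 libraries, 40 relations of the 8 tested members with 5 marker lists were computed on log2 CPM. The permutations shuffled libraries across all groups, so differences between group means that both share also count in their p. No p was computed for the centred values. Itgax followed the pan-leukocyte list (Pearson r = 0.893, permutation p = 1e-05, the smallest the 100000 permutations can give, adjusted p = 0.0004, Spearman rho = 0.877, permutation p = 1e-05). Without the 2 libraries farthest from the median of the list, r was 0.804, and after each value was centred on its group mean it was 0.782. Ccr7 followed the T cell list (r = 0.792, permutation p = 6e-05, adjusted p = 0.00107, rho = 0.833, permutation p = 2e-05, r = 0.715 without the 2 farthest, 0.799 centred). The crossed pairings were also positive. Itgax and the T cell list had r = 0.793 (permutation p = 8e-05, adjusted p = 0.00107, rho = 0.753, permutation p = 0.00037, r = 0.684 without the 2 farthest, 0.699 centred). Ccr7 and the pan-leukocyte list had r = 0.714 (permutation p = 0.00064, adjusted p = 0.00427, rho = 0.577, permutation p = 0.011), which was 0.446 without the 2 farthest and 0.718 centred. Zbtb46 followed the blood endothelium list (r = 0.734, permutation p = 0.00031, adjusted p = 0.00248, rho = 0.716, permutation p = 0.00081, r = 0.625 without the 2 farthest, 0.675 centred), and ran opposite to the keratinocyte list (r = -0.668, permutation p = 0.0017, adjusted p = 0.0085, rho = -0.633, permutation p = 0.00423, r = -0.633 without the 2 farthest, -0.486 centred). Irf8 and the pan-leukocyte list had r = 0.734 (permutation p = 0.00026, adjusted p = 0.00248, rho = 0.707, permutation p = 0.00095), r = 0.665 without the 2 farthest, and 0.395 centred. Irf8 and the macrophage list had r = 0.593 (permutation p = 0.00757, adjusted p = 0.0275, rho = 0.4965, permutation p = 0.032), 0.498 without the 2 farthest and 0.504 centred. Fscn1 and the keratinocyte list had r = 0.642 (permutation p = 0.00316, adjusted p = 0.014, rho = 0.502, permutation p = 0.0313), which dropped to 0.386 without the 2 farthest libraries and to 0.322 when centred, so that relation rests on those libraries and on the group means. Fscn1 and the T cell list had a similar r of 0.630 (permutation p = 0.00366, adjusted p = 0.0146, rho = 0.574, permutation p = 0.0118), 0.478 without the 2 farthest and 0.08 centred.

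**Figure D5:**
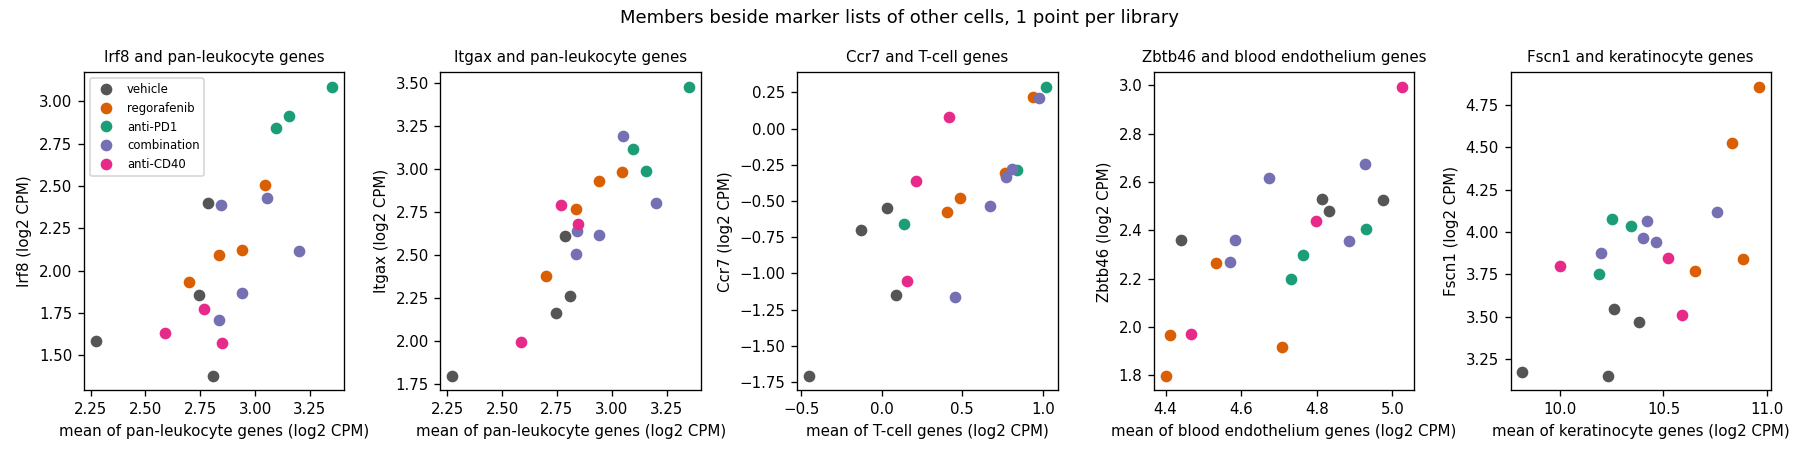
Level of 5 members (log2 CPM, vertical axes) against the mean log2 CPM of a marker list (horizontal axes), 1 point per library, coloured by group. Itgax, Ccr7 and Zbtb46 follow their lists within groups as well (centred r of 0.782, 0.799 and 0.675), while Irf8 in the 3 anti-PD1 libraries is above the other libraries.

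Among themselves the members did not form a single block. With treatment means removed, Itgax and Ccr7 had r = 0.72 over the 19 libraries and Itgax and Irf8 had r = 0.61, whereas Itgax and Zbtb46 had r = -0.68, and Cd83 had r = 0.10 with Irf8 and 0.11 with Fscn1. All values in a pair come from the same libraries. The genes most like each member on the same centred scale were the class II antigen presentation genes H2-Ab1 (r = 0.91) and H2-Aa (0.90) with Stambp (0.91) for Itgax, and the interferon-inducible Lgals3bp (0.83) and Zbp1 (0.83) with Phf11b (0.81) for Irf8. Before centring, r was 0.94 for H2-Ab1, 0.93 for H2-Aa, 0.11 for Stambp, 0.79 for Lgals3bp and 0.73 for both Zbp1 and Phf11b. For Fscn1 they were Mthfd1 (0.91, and 0.39 before centring), the activin subunit gene Inhba (0.87 and 0.86) and the membrane-actin linker Msn (0.85 and 0.90). Zbtb46 was most like Rbms2 (0.87 and 0.76), the oxysterol receptor Nr1h3 (0.87 and 0.58) and Rpa1 (0.87 and 0.80), Flt3 most like Zfr2 (0.85 and 0.66), Gmip (0.83 and 0.81) and Zfp384 (0.79 and 0.80), and Cd83 most like Bcas2 (0.80 and 0.10), Polr3k (0.78 and 0.03) and Laptm4b (0.76 and 0.55).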

How the data were processed

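RNA of 19 mouse oral tumour samples was extracted with a column kit and sequenced from stranded poly(A) libraries, per the labels' protocols. The submitters' processing notes name cutadapt 2.4, STAR 2.7.2a and GRCm38; the read counter, strand handling and gene annotation were not given in the sources used here. The deposited values are whole-number counts per Ensembl gene, as the authors made them, not normalized (16776177 to 24969492 per library). Of 55487 rows, 55141 matched a symbol.

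The counts were fitted with edgeR 4.0.16 in R 4.3.3: filterByExpr by group (16909 genes, 99.9% of counts), TMM scaling, 1 mean for each group in a joint fit (14 residual degrees of freedom), robust quasi-likelihood tests and Benjamini-Hochberg adjustment over the tested genes (called at 0.05). Log2 CPM used a prior count of 2. SE of a log2 change is its size divided by the square root of F. Alternatives were DESeq2 1.42.0, limma 3.58.1 with sample weights, RLE scaling, no filter, only the compared groups, a replicate block, covariates and each library left out; the code was tested on simulated data. Likeness is Pearson r of log2 CPM centred on group means, for members with a mean of at least 1 CPM, and the 3 highest genes are named. From each dendritic cell list the genes that passed, up to 4, or the 2 with the smallest p are named; Cd40, Cxcl9, Flt3l and Cbfa2t3 levels given beyond that were chosen after their values were seen. Relations used 100000 permutations of the 19 libraries, made without regard to group. Promoters are RefSeq windows from 250 bases before to 50 after the start; 1 of the motifs searched is not reported here. The members, lists and tests were chosen with earlier results of these data known.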

Additional observations from a re-analysis of the deposited data

Results flagged for a closer look

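Of 30 member and group combinations with at least 4 libraries, 1 held a library that stood apart by Dixon's test, which chance gives in about 1 in 20 groups. Batf3 was 0.213 CPM in vehicle 3, while the other 3 vehicle libraries had 0.415 to 0.453 CPM. That level is 4 counts, and Batf3 passed no test in any comparison.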

How the results depend on the processing

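Over 252 combinations of a comparison and an alternative, the number of members called was within 1.5 times the main count in 204. A count of 0 that stayed 0 was included in these 204. The main count was 0 in every comparison except the test among the 5 groups (2) and regorafenib against vehicle (1). Of 88 single-member results, 32 changed sign under some alternative, and none of these was called. The test among the 5 groups has no sign, so of the called results only Fscn1 under regorafenib could have changed sign, and it did not. The 2 called among the 5 groups became 1 without the filter, 4 with DESeq2, 3 with limma (Itgax was added), 1 with the replicate block, 1 with the skeletal muscle or the blood endothelium covariate, 0 with the pan-leukocyte or the keratinocyte covariate, and 1 to 4 when each library was left out (4 without anti-CD40 3). The 1 called for regorafenib against vehicle became 2 with limma and with the salivary gland covariate (Ccr7 was added), and 0 with the skeletal muscle, pan-leukocyte or keratinocyte covariate; with only the compared groups it was Zbtb46 in place of Fscn1. The 0 for anti-PD1 against vehicle became 1 without the filter, 2 with DESeq2, 1 with limma, and 0 to 1 on leaving out libraries (1 without vehicle 2). For the combination against regorafenib, 0 became 1 with DESeq2, 2 with limma and 1 with only the compared groups, and for the combination against anti-PD1 it became 1 with DESeq2. For the interaction, 0 became 1 without the filter, 3 with DESeq2, 1 with limma, 1 with the salivary gland covariate, and 0 to 1 on leaving out libraries (1 without vehicle 2). Averaged over settings, the 0 for anti-PD1 became 2 with DESeq2, 2 with limma and 1 with only the compared groups, and the 0 for regorafenib became 1 with DESeq2, 1 with the salivary gland covariate, and 0 to 1 on leaving out libraries (1 without regorafenib 2 or regorafenib 3). For anti-CD40 against anti-PD1, 0 became 1 without the filter, with DESeq2, with limma and with the blood endothelium covariate. The cause was not tested. The keratinocyte and blood endothelium covariates and a fit without robust estimation were chosen after seeing the data.

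The sample titles number replicates alike across groups, while the column names of some libraries carry other numbers. By title number, same-numbered libraries had a median r of 0.12 over 33 pairs (17 above 0.1). Different-numbered libraries had -0.08 over 110 pairs (48 above 0.1). Both ranges were wide (-0.67 to 0.75 and -0.86 to 0.81), so a weak pairing cannot be told from none. The main fit did not take the numbers as pairs, and the replicate block changed the call of Fscn1 among the 5 groups. Groups of 3 to 5 libraries and levels near 3 counts limit the precision for Xcr1, Clec9a and Batf3.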
